A study of Mus musculus with 6 samples.

Results

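The genes examined here encode the core of the Notch pathway: the receptors NOTCH1, NOTCH2 and NOTCH3, the ligands JAG1, JAG2 and DLL1, the nuclear partners RBPJ and MAML1, and the target genes HES1 and HEY1. They were taken by symbol from the deposited gene counts, and all 10 were among the 17144 genes listed. The 6 RNA-seq libraries, 3 titled D and 3 titled C, carry the label SaOS2, the name of a human cell line grown from an osteosarcoma. The series is described as a comparison of these cells with and without DDTC(I), but no label spells out the letters, gives a dose or a time, or tells of separate cultures. Differences are therefore given as D minus C, and p-values measure only the spread between these libraries, which may be technical.

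Notch signalling passes between neighbouring cells. A ligand of the Jagged or Delta-like family on one cell binds a NOTCH receptor on the next, after which an ADAM protease and then gamma-secretase cut the receptor and free its intracellular domain. That domain enters the nucleus and joins the DNA-binding protein RBPJ and a Mastermind coactivator such as MAML1, and the complex switches on genes that include the HES and HEY repressors. In bone, the pathway is known for holding back osteoblast differentiation, and it has been studied in osteosarcoma. HES1 and other members also respond to signals outside the Notch pathway, and HES1 protein represses its own gene.

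Library totals were 18446443 to 19802340 counts in D and 18532763 to 20602771 counts in C. Libraries of a group differed by more than sampling noise, with a chi-square statistic per degree of freedom of 20.5 to 90.5 between D libraries and 6.21 to 13.4 between C libraries. Of 10 osteoblast markers, SP7, BGLAP and IBSP had at most 3 counts in every library, and ALPL, the bone alkaline phosphatase for which SaOS2 is known, had 9, 15 and 12 counts in D and 13, 12 and 8 in C, so the cells are named by their label only. Summed osteoblast marker levels, mostly SPARC, were 718 to 807 normalized CPM (the count as a rate of the scaled library) in D and 2002 to 2359 in C. Summed epithelial marker levels were 125 to 159 CPM in D and 80.8 to 90.1 CPM in C. Most of it came from KRT18, which rose (71.4 CPM in D and 38.4 CPM in C on average), and KRT8, which was not called. ESRP1 (22.6 CPM in D and 1.35 CPM in C) and CDH1 (1.65 CPM in D and 0.451 CPM in C) also rose, while EPCAM and KRT19 were not tested. CDH1 passed the filter on low counts only through D, so its call followed in part from the filter. Of 4 tested epithelial markers 3 were thus higher (75.0%) and 0 lower, beside 26.8% higher and 27.7% lower over all tested genes. The sums for endothelial markers were 351 to 383 CPM in D and 355 to 374 CPM in C, most of it from TIE1, which was not called. Of 5 tested endothelial markers 2 fell (40.0%) and 0 rose, beside 27.7% lower and 26.8% higher over all tested genes. Those that fell were CDH5 (0.551 CPM in D and 4.24 CPM in C on average) and PECAM1 (11.4 CPM in D and 15.4 CPM in C). CDH5 passed the filter only through C, so its call followed in part from the filter. KDR had at most 3 counts in every library. Blood cell markers summed to 460 to 502 CPM in D and 478 to 500 CPM in C, most of it from CD68, which was not called. CD3E had at most 3 counts in every library. Of 2 tested blood cell markers 1 rose (50.0%) and 0 fell. It was ITGAM (0.732 CPM in D and 0.279 CPM in C), which passed the filter only through D, so its call followed in part from the filter. CD14, not tested, had 11, 5 and 15 counts in D and 3, 1 and 2 in C, and the other untested markers overlapped between the groups. Smooth muscle markers summed to 152 to 202 CPM in D and 144 to 146 CPM in C, most of it from TAGLN, which rose (158 CPM in D and 117 CPM in C on average). The other 2 tested markers of that list fell, DES (2.33 CPM in D and 7.02 CPM in C) and ACTA2 (12.5 CPM in D and 20.3 CPM in C). That made 33.3% higher and 66.7% lower among 3 tested markers, beside 26.8% and 27.7% of all tested genes. The part of these differences in the Notch gene results was not tested. Because the RNA is bulk, fewer cells of a type and less RNA per cell cannot be told apart.

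HES1, HEY1 and NOTCH3 rose in D and NOTCH2 fell, while the changes of NOTCH1, JAG1, RBPJ and MAML1 did not pass the test. Counts were tested with edgeR's quasi-likelihood test, with Benjamini-Hochberg adjustment over the 12682 genes that passed a filter on low counts, and an adjusted p under 0.05 made a call. Of the 10 members, 8 passed this filter, and JAG2 and DLL1 did not. Among those 8, 3 were called higher and 1 lower, beside 26.8% of all tested genes called higher and 27.7% called lower. The share of members that moved, 4 of 8, was near the background of 54.4% of all tested genes called in either direction. NOTCH3 entered the test only through its D libraries, so its call followed in part from the filter.

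**Figure D1:**
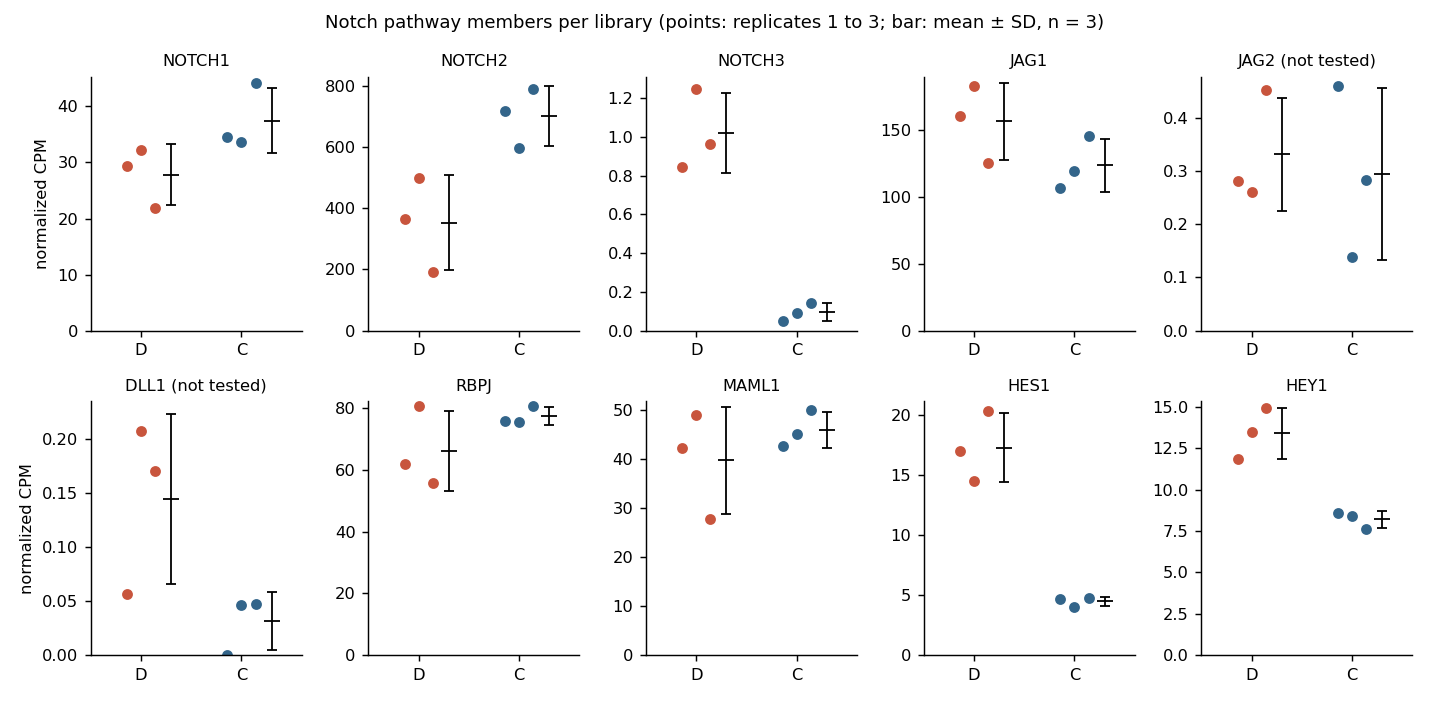
Normalized CPM of the 10 members in each library (points, replicates 1 to 3 from left to right) with the mean and SD of each group (n = 3), D left of C, every axis starting at 0. HES1, HEY1, NOTCH3 and the untested DLL1 have all D points above all C points, though DLL1 ties in counts. NOTCH2 and NOTCH1 have all D points below all C points, and NOTCH1 was not called.

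NOTCH2 was by far the most abundant receptor and the one that fell. It had 366, 500 and 191 CPM in D replicates 1, 2 and 3, against 717, 596 and 790 CPM in the C replicates. All D libraries lay below all C libraries, but the D libraries spread widely, with replicate 3 lowest. The means were 352 ± 155 CPM in D and 701 ± 97.9 CPM in C (SD, n = 3 each), a log2 fold change of −0.99 ± 0.30 (standard error; 95% interval −1.67 to −0.31; adjusted p = 0.021, edgeR). The size of the fall depended on D replicates 2 and 3. Without D replicate 3 the log2 fold change was −0.68 ± 0.14 (adjusted p = 0.00068, edgeR). Without D replicate 2 it was −1.30 ± 0.26 (adjusted p = 0.0026, edgeR). The call was lost without D replicate 1 (adjusted p = 0.064), without C replicate 1 (adjusted p = 0.062) and without C replicate 3 (adjusted p = 0.067), with log2 fold changes of −1.02, −0.98 and −0.90 in edgeR.

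NOTCH2 shares nearly identical sequence with the NOTCH2NL genes, its partial copies, so reads can be divided between them in ways the tables do not show. These copies held few counts. NOTCH2NLA had 60, 65 and 52 counts in D and 85, 90 and 70 in C, NOTCH2NLB 66, 82 and 70 in D and 72, 52 and 66 in C, and NOTCH2NLC 14, 27 and 17 in D and 76, 14 and 20 in C. None of the 3 copies was called (adjusted p = 0.19, 0.12 and 0.34, edgeR), while NOTCH2 itself had 6495, 9606 and 3357 counts in D and 13990, 12888 and 16662 in C.

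NOTCH1, the founding receptor of the family, was present at a much lower level. It had 29.5, 32.2 and 21.8 CPM in D and 34.6, 33.7 and 44.1 CPM in C. Each D library was below each C library, though D replicate 2 and C replicate 2 lay close together. Its log2 fold change, −0.43 ± 0.17, missed the threshold (95% interval −0.82 to −0.03; adjusted p = 0.064, edgeR). It passed without D replicate 2 (−0.51, adjusted p = 0.029), with library size as the only scaling (−0.58, adjusted p = 0.030), with upper quartile scaling (−0.44, adjusted p = 0.048) and in both filtered FPKM fits (limma; −0.45, adjusted p = 0.029, with a pseudocount of 1 and −0.57, adjusted p = 0.033, with 0.1). It was −0.20 ± 0.11 (adjusted p = 0.13) after each library's length trend was removed, so the call depended on these choices.

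NOTCH3, a receptor best known from vascular smooth muscle, was near the detection limit in C and low in D. It had 15, 24 and 17 counts in D and 1, 2 and 3 counts in C. The lowest D library therefore held more counts than the 3 C libraries together. The summed counts, 56 in D and 6 in C, gave a ratio of 10.7 after scaling, with an exact 95% interval of 4.60 to 30.3 that covers counting error only (adjusted p = 0.00027, edgeR). In CPM the level was 0.846, 1.25 and 0.965 in D and 0.0512, 0.0924 and 0.142 in C, and 0.53% of tested genes had a lower mean FPKM over the 6 libraries.

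Among the 3 ligand genes JAG1, JAG2 and DLL1, JAG1 was by far the most abundant, and its change did not pass the test. JAG1, which encodes the ligand Jagged 1, had 161, 183 and 126 CPM in D and 107, 119 and 146 CPM in C. The groups overlapped, since D replicate 3 was below C replicate 3. The log2 fold change was 0.34 ± 0.17 (95% interval −0.04 to 0.72; adjusted p = 0.12, edgeR), so the interval includes 0. Without D replicate 3 the log2 fold change was 0.49 ± 0.12 and passed the test (adjusted p = 0.0032), and with the length trend removed it was 0.46 ± 0.11 and passed as well (adjusted p = 0.0060).

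JAG2 and DLL1, the other ligands of the set, were too low for the test. JAG2 had 5, 5 and 8 counts in D and 9, 3 and 6 in C, so the libraries overlapped and the ratio of the summed counts, 18 in each group, was 1.14 (exact 95% interval 0.560 to 2.33). DLL1 had 1, 4 and 3 counts in D and 0, 1 and 1 in C, with a tie between the lowest D and the highest C libraries. The ratio of its sums, 8 and 2 counts, was 4.57 with an interval of 0.911 to 44.1, so a difference was not detectable at this depth. The limit that 0 counts allow in a library, 3 counts, lay at 0.156 to 0.170 CPM in D and at 0.139 to 0.154 CPM in C.

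HES1 showed the largest change of the members with ample counts in both groups. HES1, a basic helix-loop-helix repressor and a direct target of the RBPJ complex, had 302, 279 and 358 counts in D and 91, 87 and 100 in C. In CPM these were 17.0, 14.5 and 20.3 in D and 4.66, 4.02 and 4.74 in C, so every D library stood far above every C library. The log2 fold change was 1.95 ± 0.16 (95% interval 1.58 to 2.32), 3.86-fold, with an adjusted p of 4.1e-05 in edgeR. It stayed between 1.51 and 2.10 under all 19 alternatives tried and was called under each, including without D replicate 3 (1.83 ± 0.15) and with the length trend removed (1.80 ± 0.12).

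HEY1, a related repressor that also responds to BMP and TGF-beta signals, rose by less. It had 11.8, 13.5 and 14.9 CPM in D and 8.56, 8.41 and 7.63 CPM in C. The groups did not overlap, and the C libraries lay close together. The log2 fold change was 0.71 ± 0.13, 1.64-fold (95% interval of the log2 value 0.41 to 1.01; adjusted p = 0.0022, edgeR). It was called under all 19 alternatives, with log2 fold changes from 0.45 to 0.79. Groups that do not overlap were common in these data: 62.7% of all tested genes had every D library on the same side of every C library, and so did 5 of the 8 tested members. All D libraries lay above all C libraries in 3 members, beside 30.6% of tested genes, and below them in 2, beside 32.1%.

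The nuclear partners of the receptor did not pass the test. RBPJ, the DNA-binding protein of the pathway, had 61.9, 80.7 and 55.9 CPM in D and 75.9, 75.5 and 80.8 CPM in C, and D replicate 2 lay inside the range of the C libraries. Its log2 fold change was −0.23 ± 0.14 (95% interval −0.55 to 0.10; adjusted p = 0.21, edgeR). Without D replicate 2 it was −0.36 ± 0.10 and passed (adjusted p = 0.014). MAML1, a Mastermind coactivator, had 42.4, 49.1 and 27.8 CPM in D and 42.7, 45.1 and 50.0 CPM in C, so the groups overlapped and D replicate 3 stood apart below the rest. Its log2 fold change of −0.21 ± 0.19 (95% interval −0.65 to 0.23; adjusted p = 0.39) rested on that library, and without it the value was 0.0054 ± 0.11 (adjusted p = 0.97, edgeR).

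**Figure D2:**
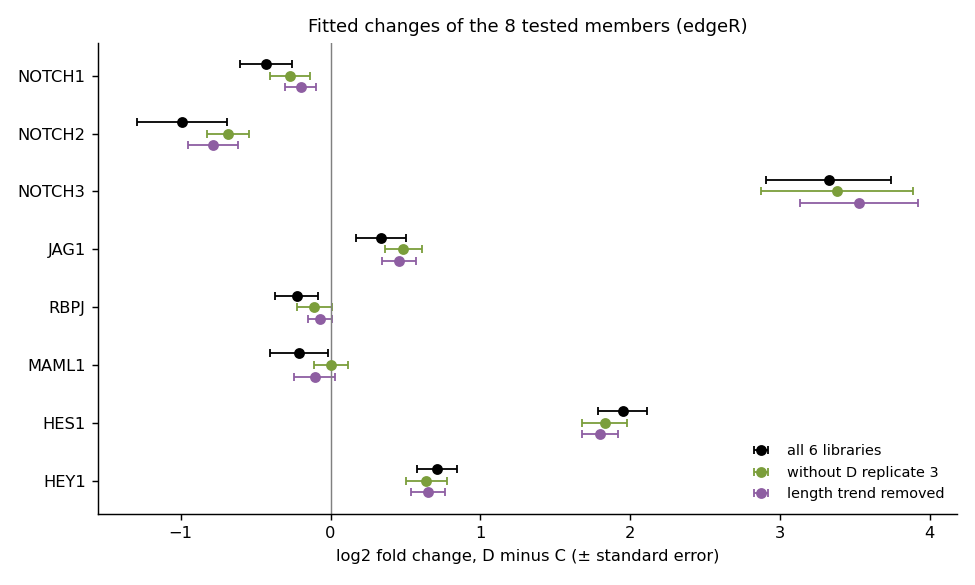
Fitted log2 fold change of the 8 tested members (D minus C, bars are standard errors), with all 6 libraries, without D replicate 3 and after each library's length trend was removed. HES1 and HEY1 lie above 0 and NOTCH2 below 0 in all 3 fits, while MAML1 lies near 0 without D replicate 3. The fitted value of NOTCH3 depends on the prior count, since C held 6 counts in all.

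Levels of different genes can be compared per gene length, for which the FPKM values deposited by the authors (counts scaled to gene length and to the library total) were used without a test. In D the order of mean FPKM was NOTCH2 (28.6), JAG1 (25.1), HES1 (10.4), RBPJ (9.17), MAML1 (6.59), HEY1 (5.12), NOTCH1 (2.78), NOTCH3 (0.113), JAG2 (0.0542) and DLL1 (0.0363). In C it was NOTCH2 (62.7), JAG1 (22.0), RBPJ (11.9), MAML1 (8.42), NOTCH1 (4.15), HEY1 (3.48), HES1 (2.99), JAG2 (0.0538), NOTCH3 (0.0117) and DLL1 (0.00869). HES1 thus stood in the third place in D and in the seventh in C. In C the libraries of neighbours in this order did not overlap except for NOTCH3 and DLL1. In D the neighbours NOTCH2 and JAG1, HES1 and RBPJ, RBPJ and MAML1, MAML1 and HEY1, and JAG2 and DLL1 overlapped, so their order there is not beyond the spread of the libraries.

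**Figure D3:**
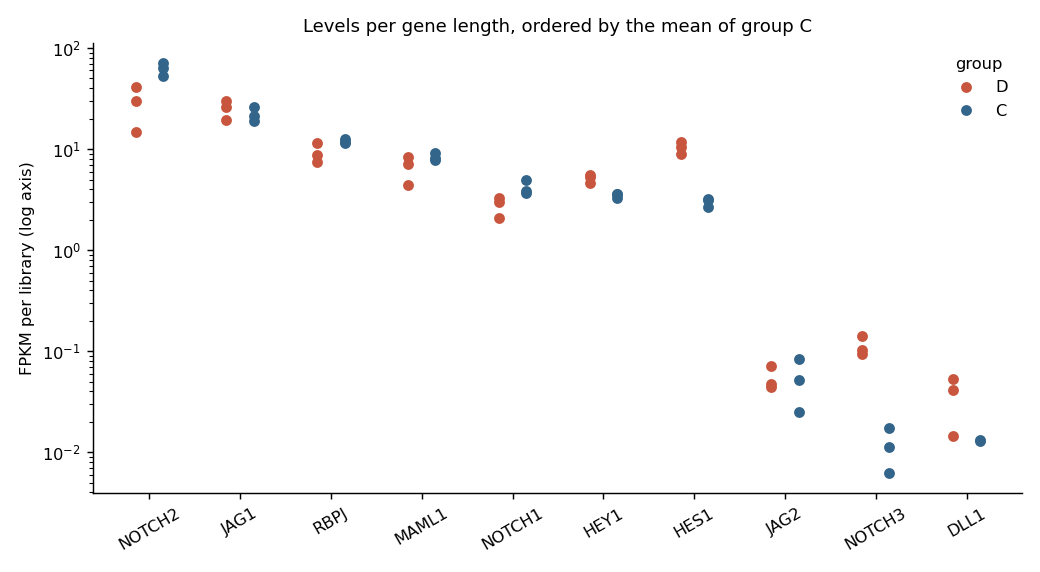
FPKM of each member in each library on a log axis, D left of C, ordered by the mean of C. NOTCH2 and JAG1 lead in both groups, HES1 lies near 10 FPKM in D and near 3 FPKM in C, and the 0 of DLL1 in C replicate 1 cannot be drawn on this axis.

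The receptor and target genes also differed in proportion to each other. Of the summed FPKM of the 3 receptors, NOTCH2 made up 90.7%, 92.3% and 87.1% in D and 94.4%, 93.4% and 93.5% in C. NOTCH1 made up 9.02%, 7.36% and 12.3% in D and 5.63%, 6.54% and 6.47% in C, so every D share of NOTCH1 was above every C share although its level was not higher. The summed receptor FPKM was 32.9, 44.6 and 17.0 in D and 67.9, 56.8 and 75.8 in C. JAG1 made up at least 99.4% of the summed FPKM of JAG1, JAG2 and DLL1 in every library. Its FPKM was 0.872, 0.728 and 1.31 times that of NOTCH2 in D, against 0.296, 0.397 and 0.366 times in C. HES1 was 2.27, 1.70 and 2.15 times HEY1 in D and 0.859, 0.753 and 0.979 times HEY1 in C, so the more abundant of the pair was HES1 in each D library and HEY1 in each C library. The ratio of MAML1 to RBPJ, 0.712 ± 0.113 in D and 0.708 ± 0.0340 in C (SD, n = 3 each), overlapped between the groups.

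The D libraries differed among themselves along gene length, and the members span a wide range of lengths, from 1575 bp for HES1 and 2482 bp for HEY1 to 9523 bp for NOTCH1 and 11784 bp for NOTCH2. Over all tested genes longer than 6000 bp, the median difference from the C mean on the log2 CPM scale was −0.21, 0.04 and −0.48 in D replicates 1, 2 and 3, and in genes of up to 1500 bp it was 0.19, −0.05 and 0.55. NOTCH2 differed from its C mean by −0.93, −0.48 and −1.87 in the same order, below the median of the long genes in each library. The distance between D replicates 3 and 2 on this scale was 0.48 for HES1 and 0.15 for HEY1. It was −1.39 for NOTCH2, −0.82 for MAML1, −0.56 for NOTCH1, −0.55 for JAG1, −0.53 for RBPJ and −0.34 for NOTCH3, whose counts were low. The SD of NOTCH2 over the D libraries, 0.71, was above that of 97.6% of tested genes, against a median of 0.22. After each library's length trend was removed, NOTCH2 kept a log2 fold change of −0.78 ± 0.17 (adjusted p = 0.0029, edgeR).

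**Figure D4:**
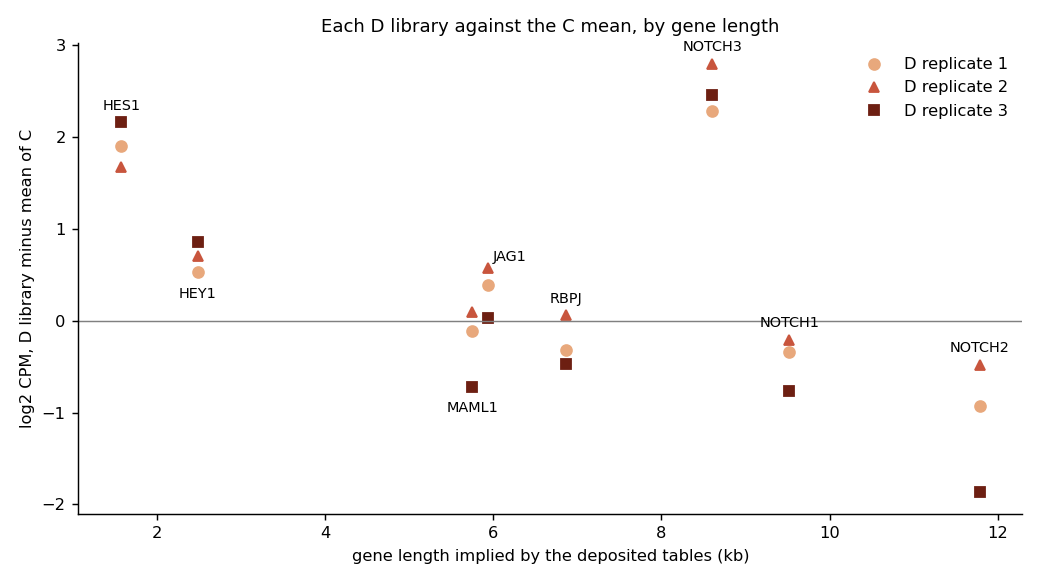
Difference of each D library from the C mean (log2 CPM, vertical axis) against gene length in kilobases for the 8 tested members. D replicate 3 is the lowest library for NOTCH1, NOTCH2, JAG1, RBPJ and MAML1 and the highest for the short genes HES1 and HEY1. For NOTCH3, D replicate 1 is the lowest and D replicate 2 the highest.

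Beyond the 10 members, 79 genes of the pathway were set out in lists by their role, of which 76 were listed in the tables and 68 were tested. Of these 68 genes, 13 were called higher and 28 lower, that is 19.1% and 41.2%, beside 26.8% called higher and 27.7% called lower over all genes tested. Their median log2 fold change was −0.23, beside −0.02 over all genes tested. No set test was made, so the lists are described by their counts. Among the other ligands and receptors, NOTCH4, the remaining receptor, had 1.36 ± 0.114 CPM in D and 2.02 ± 0.218 CPM in C, a log2 fold change of −0.57 ± 0.20 (adjusted p = 0.037, edgeR). Its call was lost under 8 of 17 alternatives, among them the length trend removed and every omission of a library but that of D replicate 3 (adjusted p = 0.058 to 0.16). DLK2, a ligand-like protein, fell to 13, 2 and 9 counts in D, against 46, 40 and 37 in C (−2.15 ± 0.43, adjusted p = 0.0031), and it passed the filter only through C. The other tested gene of this list, the noncanonical ligand gene DNER, was not called, and 3 were not tested. DNER, named after its values were seen, had a mean FPKM of 46.5 in D and 51.9 in C. This was above the 25.1 and 22.0 of JAG1. The endothelial ligand gene DLL4, singled out after its values were seen, had 1, 0 and 0 counts in D and 7, 8 and 12 in C, a ratio of the sums of 0.0423 (exact 95% interval 0.00103 to 0.256, counting error only).

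Of 7 tested genes whose products add sugars to the receptor, 1 rose (14.3%) and 4 fell (57.1%), against 26.8% higher and 27.7% lower over all tested genes. POFUT1, the enzyme that places O-fucose on the receptor, fell to 230 ± 37.1 CPM in D, against 403 ± 10.4 CPM in C (−0.81 ± 0.13, adjusted p = 0.0011). GXYLT1 (−0.71) and EOGT (−0.58), which add other sugars, also fell. POGLUT1, the enzyme that places O-glucose, rose to 17.0 ± 1.38 CPM in D, against 7.83 ± 0.524 CPM in C (1.12 ± 0.12, adjusted p = 0.00015). The fall of POFUT1 and the rise of POGLUT1 were called under all 19 alternatives.

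Of the 3 tested ubiquitin ligases that act on ligands, 2 fell (66.7%) and 0 rose, beside 27.7% lower and 26.8% higher over all tested genes. NEURL1B, a Neuralized-type ligase, had 1 count in each D library and 95, 70 and 65 counts in C, a ratio of the sums of 0.0149 (exact 95% interval 0.00305 to 0.0441, counting error only; adjusted p = 1.9e-05, edgeR). It passed the filter only through C, where it is high, so its call followed in part from the filter. Its relative NEURL1, named after its values were seen and not tested, had 11, 10 and 11 counts in D and 0, 1 and 1 in C, a ratio of 18.3 (exact 95% interval 4.66 to 157, counting error only). MIB1, the main ligase of Delta and Jagged ligands, had 14.4, 27.0 and 4.77 CPM in D and 51.7, 37.4 and 49.3 CPM in C. Its log2 fold change was −1.58 ± 0.47 (adjusted p = 0.021), and the call was lost without D replicate 1, C replicate 1 or C replicate 3 (−1.53 to −1.49, adjusted p = 0.056 to 0.078).

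Of 9 tested cleavage genes, 3 rose (33.3%) and 4 fell (44.4%), where 26.8% of all tested genes were higher and 27.7% lower. ADAM10, the protease known for ligand-induced cleavage of NOTCH receptors, fell to 98.6 ± 21.0 CPM in D, against 219 ± 7.57 CPM in C (−1.15 ± 0.15, adjusted p = 0.00034). ADAM17, a related sheddase, rose to 174 ± 15.1 CPM in D, against 104 ± 0.909 CPM in C (0.75 ± 0.10, adjusted p = 0.00041). FURIN, the convertase that cuts the receptor during its maturation, fell to 144 ± 9.26 CPM in D, against 311 ± 7.64 CPM in C (−1.11 ± 0.10, adjusted p = 5.1e-05). Of the gamma-secretase genes, PSENEN (0.81) rose and APH1B (−0.64) fell. The calls of these 5 genes held under all 19 alternatives.

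**Figure D5:**
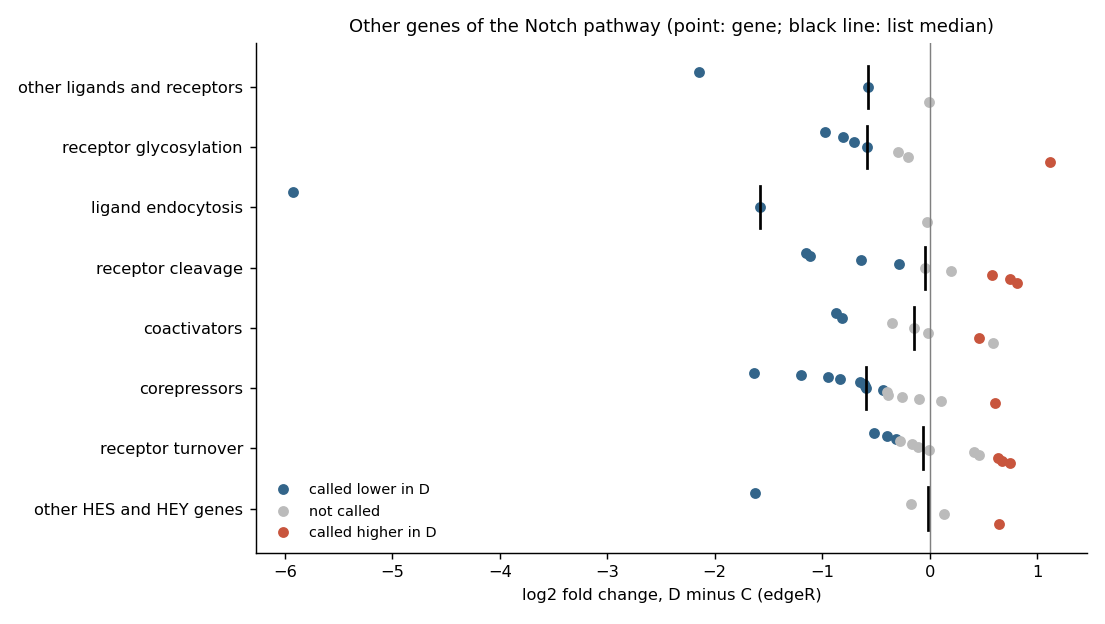
Log2 fold change (D minus C, edgeR) of the tested genes in 8 lists of other Notch pathway genes, coloured by call, with the list median as a black line. Most called corepressors lie below 0, the cleavage genes lie on both sides, and the point farthest to the left is NEURL1B, whose fitted value depends on the prior count because each D library held 1 count.

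Of 7 coactivators, 1 rose (14.3%, beside 26.8% of all tested genes) and 2 fell. The share lower, 28.6%, was near the background of 27.7%. SNW1 rose (0.46 ± 0.11, adjusted p = 0.0067) and the Mastermind relatives MAML2 (−0.82 ± 0.24, adjusted p = 0.018) and MAML3 (−0.87 ± 0.28, adjusted p = 0.029) fell in edgeR. Both falls lost their call without D replicate 1, C replicate 1 or C replicate 3 (adjusted p = 0.059 to 0.087), with log2 fold changes of −0.79 to −0.77 for MAML2 and −0.87 to −0.84 for MAML3. Of 15 corepressors, 1 rose (6.67%) and 9 fell (60.0%), against 26.8% and 27.7% of all tested genes, and their median log2 fold change was −0.60. TLE1, a Groucho-type partner of HES proteins, fell to 20.5 ± 0.594 CPM in D, against 47.1 ± 2.61 CPM in C (−1.20 ± 0.11, adjusted p = 5.6e-05). L3MBTL3, a partner of RBPJ, fell to 3.25 ± 0.726 CPM in D, against 10.1 ± 1.19 CPM in C (−1.64 ± 0.19, adjusted p = 0.00018), and the histone demethylase gene KDM1A fell by 0.65. BEND6, which binds RBPJ, rose (0.61 ± 0.16, adjusted p = 0.012), and the call did not hold with C replicate 3 left out or in the 3 fits on FPKM (adjusted p = 0.051 to 0.10). With the length trend removed, 8 corepressors fell and 1 rose.

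Genes of receptor turnover went both ways, with 3 of 12 higher (25.0%) and 3 lower (25.0%). These shares were near the background of 26.8% higher and 27.7% lower. NUMB, an adaptor that opposes Notch, fell to 99.2 ± 16.8 CPM in D, against 143 ± 6.58 CPM in C (−0.52 ± 0.13, adjusted p = 0.011, edgeR). Its relative NUMBL (−0.39) and the kinase gene CDK8 (−0.31) fell too, and the call of NUMBL was lost under 5 and that of CDK8 under 8 of 19 alternatives (adjusted p = 0.053 to 0.13). CCNC, the cyclin partner of CDK8, rose (0.64 ± 0.13, adjusted p = 0.0037), as did the ubiquitin ligase genes NEDD4 (0.75 ± 0.18, adjusted p = 0.0081) and DTX3L (0.68 ± 0.19, adjusted p = 0.016). DTX3L lost its call under 7 alternatives, including library size only and omission of D replicate 1, C replicate 1 or C replicate 3 (adjusted p = 0.054 to 0.13), and NEDD4 under 1, the FPKM fit without a filter (adjusted p = 0.074).

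Among the remaining HES and HEY genes, 1 rose and 1 fell. Of 9 on the list, 6 were listed and 4 were tested. The shares called, 25.0% higher and 25.0% lower, were near the 26.8% and 27.7% of all tested genes. HES7, known as an oscillator of the embryonic segmentation clock, fell to 2.88, 2.34 and 3.75 CPM in D, against 9.69, 10.2 and 7.68 CPM in C (−1.62 ± 0.20, adjusted p = 0.00026, edgeR), and this call held under all 19 alternatives. HEY2, a relative of HEY1, had 2.09, 1.72 and 2.50 CPM in D and 1.69, 1.16 and 1.18 CPM in C. Its log2 fold change of 0.65 ± 0.24 was just inside the threshold (adjusted p = 0.0496), and the call was lost under 11 of 17 alternatives (adjusted p = 0.053 to 0.16). The other 2 tested genes were not called. NRARP, a feedback inhibitor induced by Notch in many cells, was not tested and had 11, 6 and 11 counts in D and 6, 9 and 6 in C, which overlap. Of 8 reported targets that many other pathways also control, 3 rose, CDKN1A (1.01), SNAI2 (0.79) and NFKB2 (0.83), and ACTA2 fell (−0.70), while the other 4 were not called. These shares, 37.5% higher and 12.5% lower, stand beside 26.8% and 27.7% of all tested genes.

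Profiles most like those of the members with the lowest p, HES1 and NOTCH3, were sought among 9552 tested genes averaging 3 or more on the log2 CPM scale, by the root mean square difference of log2 CPM over the 6 libraries after each gene's mean had been subtracted. For HES1 these were the kinase gene PLK3 (difference 0.10), the quinone reductase gene NQO1 (0.11) and the transcription factor gene CEBPB (0.11). PLK3 had 45.5, 37.4 and 50.1 CPM in D and 10.6, 11.1 and 11.2 CPM in C. Among its D libraries replicate 2 was lowest and replicate 3 highest, as for HES1. The choice by likeness over these same libraries favours such a shared order, so it is no separate result. For NOTCH3 they were NCOA5 (0.17), SERPINB8 (0.17) and ANKFN1 (0.18). The NOTCH3 profile is compressed by the prior count added to its low values, and such likeness over 6 libraries in 2 groups mainly reflects the difference between the groups.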

How the data were processed

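Total RNA had been extracted with an RNeasy kit and turned into mRNA libraries with a SMARTER kit, per the labels' protocols. The authors deposited raw counts per gene symbol and FPKM values, one table of each per library. Strand setting, aligner and counter were not given in the sources used here, so reads of overlapping genes may be shared. The submitters' processing notes name mouse builds, GRCm38 and mm10, and the labels name the mouse, whereas the symbols are human: 16 of 17144 equalled a mouse symbol in letter case. The sequences supplied were those of the mouse, so none is printed and the planned search for promoter motifs was not run. Each FPKM equalled the count over the library total and a gene length common to all libraries for 17144 genes, within a relative tolerance of 0.001, and these lengths were used.

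The count test was that of edgeR 4.0.16 under R 4.3.3 (filterByExpr, TMM factors, quasi-likelihood F test, 2-sided, group as the only term), which kept 12682 genes and 99.95% of counts. Standard errors are the log2 fold change divided by the square root of F. Fold changes of counts are fitted, and levels are TMM-normalized CPM unless FPKM is named. Log2 CPM used a prior count of 2. The lowess curve for gene length had a span of 0.4. DESeq2 1.42.0 and limma 3.58.1 served as alternatives. The tests were tried on simulated counts. Members and lists were chosen with earlier results of these data known. Named genes were all members, up to 3 called genes per direction and list with the lowest p, and for the 2 members with the lowest p the 3 most similar profiles; a gene that this rule names is not reported here. The labels do not say whether replicate numbers pair the libraries, and the main test did not pair them.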

Additional observations from a re-analysis of the deposited data

How the results depend on the processing

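HES1 and HEY1 kept their direction and their call under all 19 alternatives. NOTCH3 did so in the 16 where it could be fitted, but it passed the filter only through D, so this is no separate support. The count of members called higher ranged from 3 to 4 when 1 library was left out, and the count called lower from 0 to 3. The count called lower was 2 with upper quartile factors, with library size only and in both filtered fits on log2 FPKM (pseudocounts 1 and 0.1), and 0 at an adjusted p under 0.01. The only reversal among members was MAML1 without D replicate 3 (0.0054). Over all genes, 3393 were called higher and 3509 lower, and the filtered FPKM fits called 2213 (pseudocount 1) and 2209 (pseudocount 0.1) higher. Of all calls, 49.2% were higher, against 36.8% with library size only, which shifted the median log2 fold change of all genes to −0.17, and 36.2% in the filtered FPKM fit with pseudocount 1. Other pathway genes numbered 11 to 16 higher and 20 to 31 lower with 1 library left out. With the replicate number as a block, 3 members were called higher and 1 lower, and 2694 genes were higher and 2977 lower. Same-numbered libraries had deviations from their group means correlated at 0.0084, −0.40 and −0.36 across genes. For differently numbered libraries the values ran from −0.11 (D replicate 1 and C replicate 2) to 0.42 (D replicate 3 and C replicate 2). With 3 libraries per group these deviations are not independent, so they cannot decide whether the numbers pair the libraries. The causes of these shifts were not tested. At this depth JAG2 and DLL1 were too low to test.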
